A study of Homo sapiens with 12 samples.

Results

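Long intergenic noncoding RNAs were measured by RNA-seq in HEK293 cells transfected with PEG10 constructs or a control plasmid. Genes were selected on their symbol and on their summed counts: the symbol had to be LINC followed by digits only, and the raw counts of the 12 libraries had to add up to 300 or more. Of the 26485 gene symbols in the count table, 876 were LINC genes, and 141 of these met the rule. Another 501 had some counts but fewer than 300, and 234 had no count in any library. The 3 genes just inside the limit were *LINC01372* with 317 counts, *LINC00925* with 321 and *LINC00323* with 328. Just outside were *LINC01197* with 285, *LINC01397* with 284 and *LINC00889* with 280. Since summed counts chose the 141 genes, their levels are given below as a description. None of the 141 had a count of 0 in any library, and all of them passed the filter on low counts, which kept 17176 symbols and 227 LINC genes in all.

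Each of 4 groups had 3 libraries of poly(A) RNA from HEK293, an established human embryonic kidney line of wild type genotype. Cells received PEG10 gag-pol, PEG10 gag, PEG10 NC or, as control, LifeAct-Dendra2, an actin-binding peptide joined to a fluorescent protein. *PEG10* is a gene derived from a retrotransposon. Its RNA is translated into a gag protein or, after a ribosomal frameshift, into a gag-pol protein that carries a protease, and NC is the nucleocapsid fragment of gag with its zinc finger. The constructs were driven by a CMV promoter and transfected transiently, so a library mixes cells that took up plasmid with cells that did not, no group was left untransfected, and the endogenous *PEG10* gene was present throughout. The submitters describe the 3 replicates as independent passages. The question put to the data was which transcripts differ with the form of PEG10 that a cell expresses.

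Long intergenic noncoding RNAs are transcribed by RNA polymerase II, mostly spliced and polyadenylated like messenger RNA, but lack a long open reading frame. Most are made at a low level and in few tissues. Those with a known role act in the nucleus on nearby genes, as scaffolds for protein complexes or in the cytoplasm by binding proteins or microRNAs, and some have turned out to encode a small protein. The LINC number is a placeholder given until a function is known, so several of these genes have since been renamed.

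Libraries held 30625725 to 45316749 counts, and the 141 LINC genes took 0.147% of all counts. The share of *PEG10* was 0.0230% to 0.0346% in control, 2.80% to 7.35% in gag-pol libraries, 3.78% to 6.10% in gag libraries and 0.238% to 0.389% in NC libraries, so its share was higher in each library that received a PEG10 construct than in any control library. The 8 HEK293 markers examined had mean normalized counts between 75.8 (*NEFM*) and 19415 (*VIM*). Of 10 markers of blood, liver, fibroblasts and endothelium, *COL1A1* reached 942 and no other exceeded 24.3 (*ALB*). In bulk RNA, fewer cells of a type and less RNA per cell cannot be told apart. The summed level of the 10 ran from 899.8 to 1695 in control, and its range was 783 to 1098 for gag-pol, 942 to 1019 for gag and 627 to 972 for NC. *HBB* and *PTPRC* had no count in control or with gag-pol, while the sum of the HEK293 markers was 36411 to 44247 in control, 46608 to 48339 for gag-pol, 40703 to 42054 for gag and 45263 to 56630 for NC. *VIM*, the HEK293 marker with the highest mean, rose by 0.36 on the log2 scale with NC (edgeR adjusted p = 0.0097). With gag-pol and gag it was not called (0.25 and -0.02, edgeR adjusted p of 0.058 and 0.95). Among the markers of other cell types, *ALB* fell by 2.09 with gag-pol and *COL1A1* by 0.55 with NC, with edgeR adjusted p of 0.013 and 0.022. Counts of these markers do not show that such cells were present in this HEK293 line. Any link of the markers to the LINC results was not tested. Replicates of a group differed by at least 32.1 times the variance that counting noise gives, so none was a library deposited again.

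In the GENCODE 44 annotation of GRCh38, 123 of the 141 genes could be placed, 88 by their symbol and 35 through a newer name. They lay on 22 chromosomes, with the largest number, 13, on chromosome 1. Their exons covered a median of 4334 bases, and 25 genes had a single exon once transcripts were merged. The annotation classes 110 of them as lncRNA, 4 as pseudogenes and 9 as protein coding. The 9 were *LINC00094* (now BRD3OS), *LINC01420* (NBDY), *LINC00493* (SMIM26), *LINC00998* (SMIM30), *LINC00116* (MTLN), *LINC00634* (SMIM45), *LINC00176* (C20orf204), *LINC01125* (C2orf92) and *LINC00959* (C10orf143). Intergenic was often not literal: 68 of the 123 genes shared exonic bases with another annotated gene, 57 of them with a gene on the opposite strand, and 33 lay over the body of a protein-coding gene. The strand setting of the counting is not given in the sources used here, so reads of such overlapping genes may be assigned to either. The remaining 55 genes shared no exonic base.

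Promoters are shown for 5 genes called against control, those with the largest fold changes among such genes, as the RefSeq sequence of GRCh38.p14 from 250 bases before to 50 bases after the start. *LINC00346* (chr13:110870259-110870558, minus strand) was the gene called with gag, *LINC01512* (chr6:43890778-43891077, plus strand) had the largest change called with NC, and *LINC01305* (chr2:174325777-174326076, plus strand), *LINC00618* (chr14:96943329-96943628, plus strand) and *LINC00460* (chr13:106376314-106376613, plus strand) were called with gag-pol. Capitals mark matches, on either strand, to any of 5 short motifs. The first was the box bound by the general transcription machinery, spelled TATAAA. Another, the site of the factor NF-Y, was spelled CCAAT. The GC box, which is bound by factors of the SP family, was spelled GGGCGG. The E box of basic helix-loop-helix factors was spelled CACGTG. The core of the cyclic AMP response element, here called the CRE core, was spelled TGACG.
LINC00346: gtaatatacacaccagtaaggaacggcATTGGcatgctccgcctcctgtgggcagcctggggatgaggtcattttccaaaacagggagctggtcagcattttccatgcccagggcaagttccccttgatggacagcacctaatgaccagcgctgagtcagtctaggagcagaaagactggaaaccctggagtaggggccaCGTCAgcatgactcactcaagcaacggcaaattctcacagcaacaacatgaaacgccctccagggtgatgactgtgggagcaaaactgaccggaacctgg
LINC01512: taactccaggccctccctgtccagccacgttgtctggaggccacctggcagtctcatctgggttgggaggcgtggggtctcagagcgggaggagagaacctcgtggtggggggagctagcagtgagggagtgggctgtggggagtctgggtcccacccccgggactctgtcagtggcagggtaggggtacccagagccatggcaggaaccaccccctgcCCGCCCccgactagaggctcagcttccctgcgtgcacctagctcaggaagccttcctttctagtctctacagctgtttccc
LINC01305: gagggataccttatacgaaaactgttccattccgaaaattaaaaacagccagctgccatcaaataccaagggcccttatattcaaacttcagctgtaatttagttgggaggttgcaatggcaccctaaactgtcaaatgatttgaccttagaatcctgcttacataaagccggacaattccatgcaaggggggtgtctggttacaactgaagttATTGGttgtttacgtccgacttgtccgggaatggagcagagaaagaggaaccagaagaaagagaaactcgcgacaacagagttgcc
LINC00618: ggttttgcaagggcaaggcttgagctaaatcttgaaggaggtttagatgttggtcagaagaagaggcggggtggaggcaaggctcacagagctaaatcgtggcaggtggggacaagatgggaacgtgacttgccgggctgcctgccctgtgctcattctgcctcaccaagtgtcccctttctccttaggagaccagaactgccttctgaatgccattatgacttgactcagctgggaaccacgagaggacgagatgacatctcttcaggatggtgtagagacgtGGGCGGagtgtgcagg
LINC00460: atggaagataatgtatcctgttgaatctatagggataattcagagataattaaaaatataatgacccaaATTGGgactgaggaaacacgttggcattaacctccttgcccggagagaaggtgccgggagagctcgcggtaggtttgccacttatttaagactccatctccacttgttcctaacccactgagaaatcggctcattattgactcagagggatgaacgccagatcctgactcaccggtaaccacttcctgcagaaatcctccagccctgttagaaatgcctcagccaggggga
Each held only 1 or 2 of these motifs, and no matches overlapped. The CCAAT box was found in *LINC00346*, *LINC01305* and *LINC00460*, the GC box in *LINC01512* and *LINC00618*, and the CRE core in *LINC00346*. Among all 35116 promoters of the same length, 34.6% held a CCAAT box, 44.95% a GC box and 24.6% a CRE core, and the shares among the 89 LINC genes with a promoter in the table were 40.4%, 55.1% and 29.2%. TATA boxes were in 11.5% of all promoters and 12.4% of the 89, and E boxes in 7.26% and 10.1%. The 5 promoters had 7 or 8 CpG dinucleotides, whereas the median was 19 among the 89 and 14 among all promoters. Promoters with 8 or fewer CpG made up 31.5% of the 89 and 41.6% of all. These matches describe the letters of the window and do not show binding.

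Levels of the LINC genes spanned a wide range. Normalized counts are raw counts per effective library (its total times its TMM factor), brought to the average total of the 12 libraries. The mean over 12 libraries ran from 26.6 to 10068, with a median of 140.6 against 786 for all genes tested, and 17 of the 141 genes lay above that latter value. A few genes held most of the signal: *LINC00657* alone had 18.2% of the counts of the 141, the top 5 had 42.4% and the top 20 had 66.7%. Levels of different genes were compared per kilobase of exon for the 123 annotated genes, where the median was 29.6. *LINC00657*, better known as NORAD, a cytoplasmic RNA that binds Pumilio proteins, stood at 1864 normalized counts per kilobase, *LINC00493* at 972, *LINC00998* at 522 and *LINC01420* at 436. These last 3 encode small proteins. *LINC00674* came out higher still, at 21417, but its annotated exons add up to only 160 bases and 97.5% of them are shared with another gene on the same strand and may contribute its reads. Next in order of counts, *LINC00665* had 165.2 per kilobase, and *LINC00094*, *LINC01578* (CHASERR, which lies next to *CHD2* and restrains it) and *LINC00641* had 242, 195 and 198 per kilobase.

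**Figure D1:**
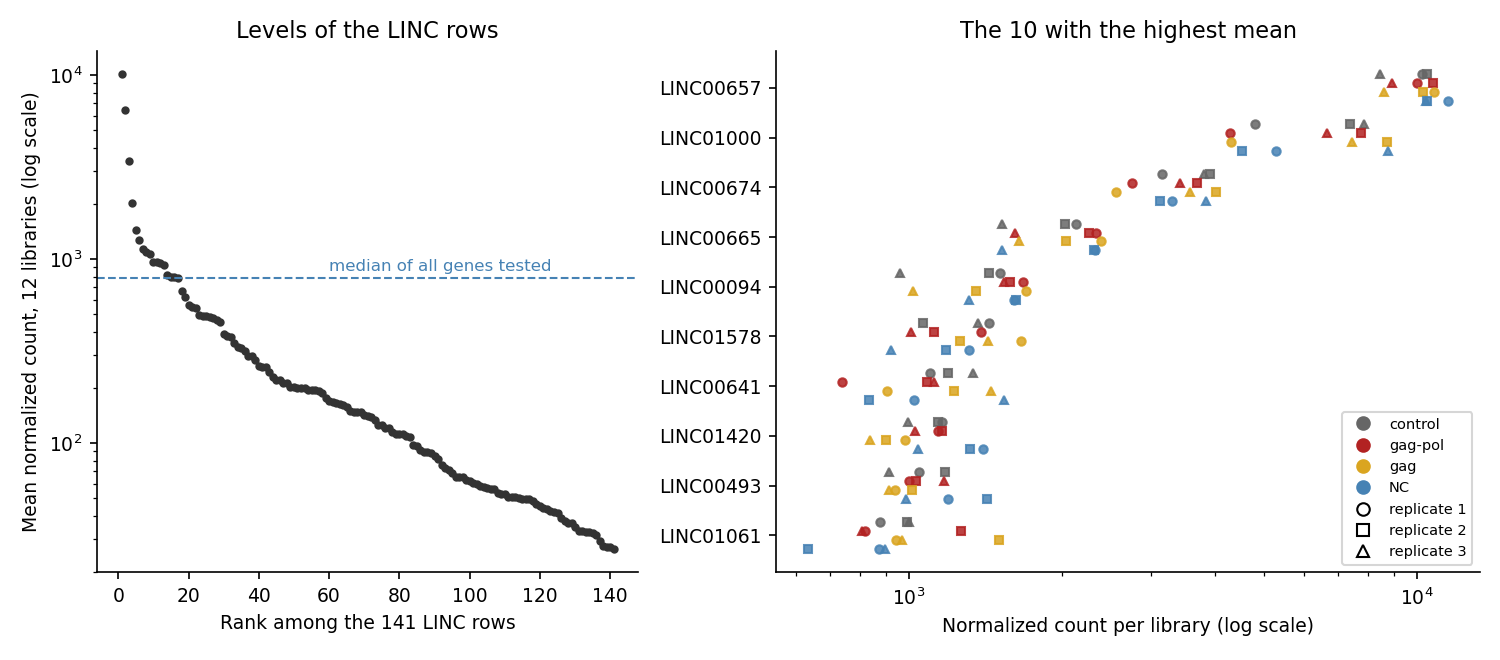
Left, mean normalized count over 12 libraries (log scale) of the 141 LINC genes in rank order, with a dashed line at 786, the median of all genes tested. Right, normalized count in every library (log scale) of the 10 genes with the highest mean, coloured by construct, with the replicate number as the marker shape. *LINC00657* has a mean of 10068 and its 4 groups overlap, while *LINC01000* is lower in replicate 1 than in replicates 2 and 3 with every construct but NC.

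None of the 10 LINC genes with the highest mean was called against control, although *LINC00094*, *LINC01578*, *LINC01420* and *LINC00493* were called in comparisons described further on. *LINC00657* had normalized counts of 10211, 10439 and 8467 in control, 9979, 10728 and 8929.9 with gag-pol, 10792, 10282 and 8609 in the gag group and 11486, 10464 and 10427 with NC. The 4 groups overlapped. Its log2 fold change against control was 0.03 for gag-pol (SE 0.07), 0.03 for gag and 0.16 for NC, with edgeR adjusted p of 0.85, 0.92 and 0.17. *LINC01000* was more scattered, at 4795, 7387 and 7851 in control and 4272, 7738 and 6646 with gag-pol, and its mean in replicate 1 was 4662 against 7092 and 7676 in replicates 2 and 3, although with NC replicate 2 was the lowest. *LINC00665* was lowest in replicate 3, with means of 2293, 2158 and 1578 in replicates 1, 2 and 3. Together the 141 genes took 0.151% ± 0.00403 of counts in control, 0.139% ± 0.0139 for gag-pol, 0.148% ± 0.0169 for gag and 0.151% ± 0.0119 for NC (SD, n = 3), and these ranges overlapped. The totals behind these shares include *PEG10*, whose own share was larger with gag-pol and gag than in control. Shares without *PEG10* were not computed.

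With gag-pol, 4 LINC genes rose and 7 fell relative to control. The test was edgeR's quasi-likelihood test with construct and replicate number as terms, fitted once to all 17176 genes, and a gene is called below at a Benjamini-Hochberg adjusted p under 0.05 over all of them. Genes called higher were 2.84% of the 141 and 5.48% of all genes tested, and genes called lower 4.96% and 5.83%, so neither share exceeded that of all genes. The 3 comparisons with control share the control libraries. The median log2 fold change of the 141 was -0.06 against 0.00 over all genes tested. At an unadjusted p under 0.05 there were 27 of the 141 and 4696 of the 17176 genes tested. Every call in this and the next comparisons of constructs rests on the replicate number as a term. Without this replicate block no LINC gene was called against control or in the joint test of all constructs. None was called in the contrast of gag-pol and NC with gag and control. For the constructs against each other, only genes called with the block were rechecked, and all lost their call. The share of all genes called without the block was not computed.

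*LINC00346* and *LINC00460*, both on chromosome 13, showed the largest rises. *LINC00346* (PRECSIT, chr13:110863987-110870330, minus strand) is a single-exon RNA known as p53-regulated, and it shares no base with another gene. Its normalized counts were 87.2, 65.7 and 98.9 in control and 193, 155 and 142 with gag-pol, so every gag-pol library lay above every control library. The rise was 0.96 on the log2 scale (SE 0.23, edgeR adjusted p = 0.010), and the call was lost without control replicate 1 or gag-pol replicate 2 (log2 fold changes 0.77 to 0.79, adjusted p 0.053 to 0.066). *LINC00460* (chr13:106374477-106384315, plus strand), an RNA studied for its high level in several carcinomas, had 40.5, 51.5 and 30.1 in control and 66.5, 103 and 72.2 with gag-pol, again without overlap. Its rise was 0.97 (SE 0.30, edgeR adjusted p = 0.038), and it was not called without any one of control replicates 2 and 3 and gag-pol replicates 1, 2 and 3 (log2 fold changes 0.79 to 1.02, adjusted p 0.084 to 0.19). *LINC00937* and *LINC00987*, which overlap pseudogenes on chromosome 12, rose by less. *LINC00937* went from 87.01 ± 6.60 to 147 ± 32.97 (mean ± SD, n = 3) and *LINC00987* from 836 ± 97.7 to 1075 ± 112, with log2 fold changes of 0.74 and 0.37 and edgeR adjusted p of 0.036 and 0.037. Neither overlapped with control. *LINC00937* lost its call without any one of the 6 control and gag-pol libraries (log2 fold changes 0.58 to 0.84, adjusted p 0.065 to 0.17). *LINC00987* lost it without any one of control replicates 1 and 3 and gag-pol replicates 1 and 3 (log2 fold changes 0.27 to 0.40, adjusted p 0.067 to 0.22).

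*LINC00476* showed the fall that depended least on single libraries. It is now named ERCC6L2-AS1, since it runs antisense to *ERCC6L2*, a DNA repair helicase gene (chr9:95759231-95876049, minus strand). Normalized counts were 349, 221 and 326 in control and 219, 134 and 140.1 with gag-pol, and the highest gag-pol library lay just under the lowest control library. The gene fell by 0.88 on the log2 scale (SE 0.18, edgeR adjusted p = 0.0032) and was called in all 15 fits with 1 library or 1 replicate number removed. *ERCC6L2* itself had a log2 fold change of -0.10 (edgeR adjusted p = 0.56). Of the 11 genes called with gag-pol, *LINC00476* alone was called in all of these fits.

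*LINC01305* (chr2:174326027-174330643, plus strand), close to the transcription factor gene *SP9*, had the largest fall. Its counts were 92.4, 68.3 and 131 in control and 21.2, 50.7 and 55.9 with gag-pol, with no overlap, and the log2 fold change was -1.18 (SE 0.34, edgeR adjusted p = 0.026). *LINC00618*, placed by RefSeq at chr14:96943579-96945394, went from 75.8, 70.99 and 84.9 to 45.3, 43.9 and 25.8, also without overlap (log2 fold change of -1.05, SE 0.32, edgeR adjusted p = 0.037). Both calls were fragile. *LINC01305* was not called without any one of control replicates 1 and 3 and gag-pol replicates 1 and 3 (log2 fold changes -1.22 to -0.82, adjusted p 0.080 to 0.18), and *LINC00618* without any one of control replicates 2 and 3 and gag-pol replicates 1 and 3 (log2 fold changes -1.11 to -0.77, adjusted p 0.074 to 0.23).

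*LINC00669* (MIR924HG, chr18:39206917-39800322, minus strand) hosts a microRNA. Its counts were 248, 129.6 and 139.8 in control and 145, 80.00 and 80.8 with gag-pol, so the groups overlapped through replicate 1, which was the highest in each group, while each gag-pol library lay below the control library of its own number (log2 fold change of -0.75, SE 0.20, edgeR adjusted p = 0.016). That call was lost without any one of control replicates 1 and 3 and gag-pol replicates 1 and 2 (log2 fold changes -0.74 to -0.68, adjusted p 0.050 to 0.076). Of the other 3 genes that fell, *LINC01089* and *LINC00869* lay outside the rule for naming genes and were named after their values were seen. *LINC00115* (chr1:824228-827539, minus strand) had narrow groups, 220.1, 218 and 227 in control against 138, 141 and 141 with gag-pol (log2 fold change of -0.66, SE 0.18, edgeR adjusted p = 0.018). It was not called without any one of control replicates 2 and 3 and gag-pol replicates 1 and 3 (log2 fold changes -0.66 to -0.62, adjusted p 0.064 to 0.087). *LINC01089* fell from 575 ± 69.2 to 392 ± 13.6 and *LINC00869* from 459.7 ± 72.6 to 317 ± 43.1, with log2 fold changes of -0.54 and -0.53 and edgeR adjusted p of 0.017 and 0.015. *LINC01089* shares 60.6% of its exonic bases with other genes, *RHOF* among them, and was not called without any one of control replicates 1 and 3 and gag-pol replicates 1 and 3 (log2 fold changes -0.53 to -0.48, adjusted p 0.051 to 0.093). For *LINC00869*, this held without control replicate 3 or gag-pol replicate 1 (log2 fold changes -0.46, adjusted p 0.093 to 0.096).

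The count of 11 itself depended on single libraries. Each of the following counts may include LINC genes that were not among the 11. The share of all genes called was not computed for such refits, here or in later comparisons. Whether the shifts are particular to LINC genes was therefore not tested. The count was 5 on removal of control replicate 1 and 3 on removal of control replicate 3. It was 2 on removal of gag-pol replicate 1 and 4 on removal of gag-pol replicate 3. Without all 4 libraries of replicate 1 it was 1, and without replicate 3 it was 3.

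**Figure D2:**
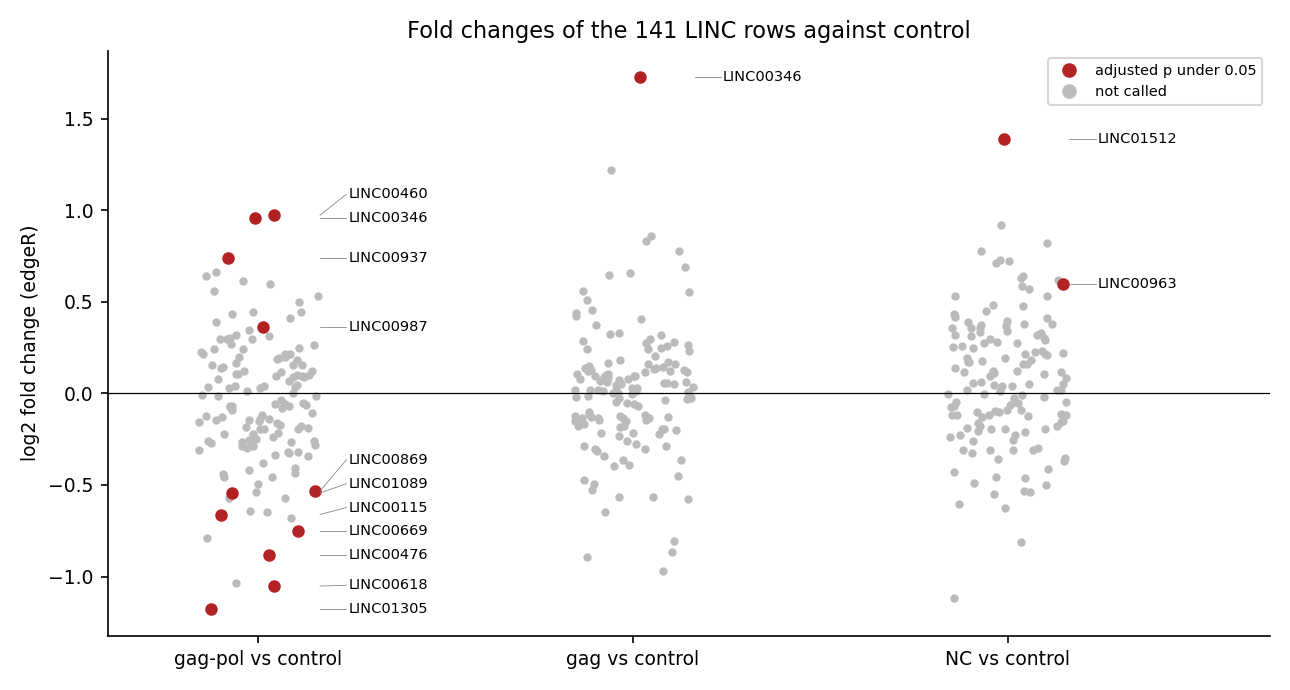
Log2 fold changes against control, from the edgeR fit, of the 141 LINC genes for gag-pol, gag and NC, 1 point a gene with sideways scatter for legibility. Red points are genes called at an adjusted p under 0.05, 11 for gag-pol, 1 for gag and 2 for NC, and each is labelled, and all 3 clouds are centred near 0.

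With gag, *LINC00346* was the single LINC gene called, and it rose. Genes called higher with gag were 0.699% of all genes tested, genes called lower 0.384%, and 1 of 141 is 0.709%. An unadjusted p under 0.05 was found for 16 of the 141 and for 2347 of the 17176 genes tested. Normalized counts of *LINC00346* were 481, 198 and 206 with gag against 87.2, 65.7 and 98.9 in control. All 3 gag libraries lay above all control libraries, and gag replicate 1 stood apart at more than any other library of the series. The log2 fold change was 1.73 (SE 0.23, edgeR adjusted p = 0.00028). It was 1.31 with an adjusted p of 0.12 without the 4 libraries of replicate 1, and the gene stayed called when any one library was left out. The count of called genes was 3 without control replicate 3, 2 without replicate 3 and 0 without replicate 1. *LINC00152* (CYTOR) and *LINC00116* (MTLN, which encodes the mitochondrial protein mitoregulin) had all 3 gag libraries above all control libraries, 215, 240.1 and 241 against 172, 139 and 133 and 274, 252 and 256 against 162, 184 and 155. They were not called, with log2 fold changes of 0.66 and 0.64 and edgeR adjusted p of 0.088 and 0.085.

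With NC, 2 LINC genes rose and none fell, although 6.04% of all genes tested were called higher and 5.15% lower. At an unadjusted p under 0.05 there were 21 of the 141 and 4650 of the 17176 genes tested. *LINC00963* (chr9:129476946-129513687, plus strand) had 610.1, 579 and 587 with NC against 442, 408 and 330.1 in control, a narrow NC group above all control libraries. Its rise was 0.60 (SE 0.14, edgeR adjusted p = 0.0087), and the gene was not called without control replicate 3 or NC replicate 3 (log2 fold changes 0.51 to 0.54, adjusted p 0.058 to 0.064). *LINC01512* (chr6:43891045-43938212, plus strand), whose nearest tested protein-coding gene is *VEGFA*, had 66.7, 126 and 51.8 with NC against 46.7, 39.04 and 12.9. Replicate 3 was the lowest library of both groups, and each NC library exceeded every control library (log2 fold change of 1.39, SE 0.37, edgeR adjusted p = 0.019). This call was lost without any one of control replicates 2 and 3 and NC replicates 2 and 3 (log2 fold changes 1.12 to 1.32, adjusted p 0.064 to 0.096). On removal of control replicate 3, or of all of replicate 3, both genes lost their call and in each case 1 other LINC gene was called. On removal of NC replicate 3 edgeR called 0, where 17 had an unadjusted p under 0.05. The number called was 4 when gag-pol replicate 3 was removed, 4 for gag replicate 2 and 9 for NC replicate 2. With all libraries it was 5 by DESeq2, 7 without the filter on low counts and 6 when only the control and NC libraries were fitted. Shares over all genes were not computed for these refits.

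**Figure D3:**
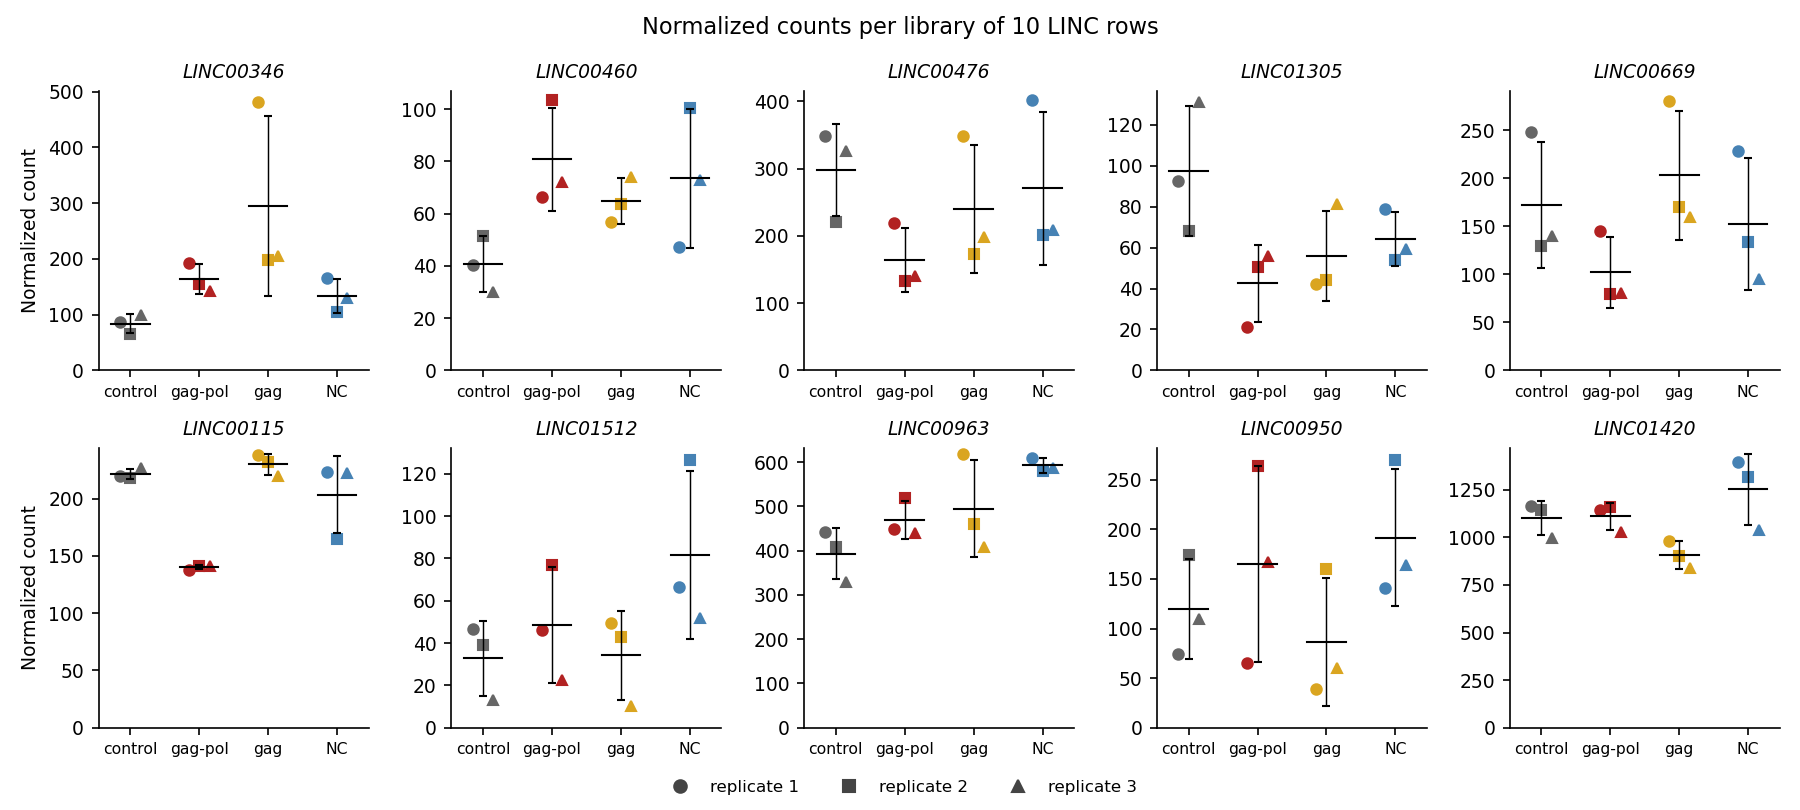
Normalized count per library of 10 LINC genes (axes from 0), grouped by construct, with the replicate number as the marker shape. Horizontal lines are means and bars SD over 3 libraries. *LINC00346* has its highest value in gag replicate 1, *LINC00115* its lowest group with gag-pol, and in *LINC00950* replicate 2 is the highest library of every group.

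A further contrast set gag-pol and NC, the 2 constructs in which a separate nucleocapsid can be present, against gag and control. It called 21 LINC genes, 12 higher and 9 lower. That is 8.51% and 6.38% of the 141, against 13.1% of all genes tested called higher and 11.6% called lower. An unadjusted p under 0.05 was found for 39 of the 141 and for 6267 of the 17176 genes tested. In none of the 21 were all 6 libraries of one side above all 6 of the other. How often this held over all genes tested was not counted, so it is not a trait of LINC genes. Log2 differences ran from -0.67 (*LINC00618*) to 0.96 (*LINC01512*). *LINC00950* was called in all 15 fits with 1 library or 1 replicate number removed. It could not be placed as a gene of its own: its symbol now leads to *TMEM8B*, a protein-coding gene counted in another row, as that of *LINC00341* leads to *SYNE3*. The normalized counts of *LINC00950* were 65.5, 263 and 167 with gag-pol, 140.5, 269.7 and 164 with NC, 38.7, 159.7 and 60.7 with gag and 74.7, 174 and 109.7 in control, and replicate 2 was the highest library of each group. The difference was 0.84 (SE 0.17, edgeR adjusted p = 0.0012).

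Of the other 11 genes higher in this contrast, *LINC01573* (NALT1, head to head with *NOTCH1*) differed by 0.73, *LINC00894* by 0.52, *LINC00173* by 0.55 and *LINC00341* by 0.48. *LINC01420*, which encodes NBDY, a small protein of the cytoplasmic P-bodies, moved by 0.24 with little scatter. It had 982, 903 and 838 with gag, below all 3 control libraries (1163, 1142 and 997), 1141, 1160.0 and 1029 with gag-pol and 1398, 1318 and 1040.2 with NC. *LINC00094*, *LINC00937*, *LINC00963*, *LINC00987* and *LINC01535* were higher by 0.24 to 0.45. Among the 9 lower genes were *LINC00669* (-0.60), *LINC00909* (-0.43), *LINC00115* (-0.42), *LINC01002* (-0.37) and *LINC01578* (-0.25), with *LINC00476*, *LINC01089* and *LINC00869* between -0.36 and -0.28. All edgeR adjusted p of these genes lay between 0.0032 and 0.045. Only 6 of the 21 were called whichever of the 12 libraries was left out, namely *LINC00950*, *LINC01512*, *LINC01420*, *LINC00669*, *LINC00115* and *LINC01002*. Of these, only *LINC00950* was also called whichever replicate number was left out. The number of LINC genes called, which may include genes outside the 21, was 10 on removal of control replicate 3, 11 for gag-pol replicate 3 and 13 for either gag replicate 1 or gag replicate 3. Without all of replicate 1 there were 6, and without all of replicate 3 there were 7.

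Constructs were also compared with each other in the same fit. Gag-pol differed from gag in 4 LINC genes (6.46% of all genes tested), NC from gag in 15 (16.9%) and NC from gag-pol in none (0.0873%), where 15 had an unadjusted p under 0.05. *LINC00346* stood lower in gag-pol and NC than in gag, at log2 differences of -0.77 and -1.08 (SE 0.22 and 0.22, edgeR adjusted p = 0.039 and 0.0030). Its group means were 83.9 ± 16.9 in control, 133 ± 30.6 with NC, 163 ± 26.8 with gag-pol and 295 ± 161 with gag, and the difference between NC and gag-pol did not pass the test (edgeR adjusted p = 0.68). Without gag replicate 1 neither difference from gag was called (log2 fold changes -0.43 and -0.73, adjusted p = 0.39 and 0.071), and the one with gag-pol was lost as well on removal of any of gag-pol replicates 1 and 3, gag replicate 2 and NC replicate 1.

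*LINC00669* was lower with gag-pol than with gag, with a log2 difference of -1.003 (SE 0.20, edgeR adjusted p = 0.0057), and was called whichever library was left out. It was not called without all libraries of replicate 1 (edgeR adjusted p = 0.14). *LINC00115* was lower and *LINC00950* higher, with log2 differences of -0.72 and 0.96 and edgeR adjusted p of 0.018 and 0.020. The call of *LINC00115* was lost without any one of gag-pol replicates 1 and 3 and gag replicates 1 and 2 (log2 fold changes -0.71 to -0.66, adjusted p 0.080 to 0.11), and that of *LINC00950* without any one of gag-pol replicates 2 and 3 and gag replicates 1 and 3 (log2 fold changes 0.78 to 0.92, adjusted p 0.064 to 0.17). With NC against gag, *LINC00950* was higher by 1.30 and *LINC01420* by 0.46 (edgeR adjusted p = 0.0016 and 0.0025), the 2 genes of the 15 that were called whichever library was left out. *LINC00950* also stayed called without any one replicate number, whereas *LINC01420* was not called without replicate 1 (edgeR adjusted p = 0.083). *LINC01512*, *LINC00894*, *LINC01158*, *LINC00403*, *LINC00341*, *LINC01535* and *LINC00493* were higher with NC too, by 0.32 to 1.37. *LINC01411*, *LINC00431*, *LINC01002*, *LINC00265* and *LINC01578* were lower, with log2 differences of -1.36 to -0.35. *LINC01411* had 111, 52.9 and 77.2 with gag and 31.8, 36.3 and 22.04 with NC, so these groups did not overlap, and its call was lost without any one of gag replicate 1 and NC replicates 1 and 3 (log2 fold changes -1.34 to -1.02, adjusted p 0.064 to 0.14). *LINC00431* is annotated as a single exon of 159 bases that lies wholly within another gene, and its counts of 48.4, 52.9 and 96.7 with gag and 23.6, 21.4 and 37.5 with NC may hold reads of that gene.

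When the 3 constructs and control were tested together, 13 LINC genes differed among them, 9.22% against 20.6% of all genes tested. An unadjusted p under 0.05 was found for 35 of the 141 and for 6006 of the 17176 genes tested. By adjusted p the first 5 were *LINC00346* (edgeR adjusted p = 0.00029), *LINC00950* (0.0040), *LINC00669* (0.0061), *LINC00476* (0.0069) and *LINC01420* (0.0090). The spread of the LINC genes was wider than that of all genes tested: the median biological coefficient of variation was 19.3% for the 141 and 10.2% for all genes tested. The 141 also had a lower median level (140.6 against 786 normalized counts), and the comparison was not matched for level. The count, which may include other LINC genes, was 8 on removal of gag-pol replicate 1 or of gag replicate 1 and 26 on removal of NC replicate 2. Without all of replicate 1 there were 2, and without all of replicate 2 there were 20. Of the 123 placed genes, 3 of the 55 that share no exonic base and 8 of the 68 that do were called, and 1 of the 9 now classed as protein coding.

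Replicate numbers separated far more LINC genes than constructs did. Between replicates 1, 2 and 3, 68 of the 141 genes differed (48.2%), against 52.8% of all genes tested. An unadjusted p under 0.05 was found for 76 of the 141 and for 10151 of the 17176 genes tested. The median of the 68 spanned 0.91 on the log2 scale between its lowest and highest replicate number, and 25 spanned 1 or more. Replicate 1 was the highest for 35 of them, replicate 2 for 20 and replicate 3 for 13. *LINC00622* spanned most, with a mean over the 4 groups of 15.2 in replicate 1, 68.9 in replicate 2 and 74.7 in replicate 3 (edgeR adjusted p = 0.00020). *LINC01260* and *LINC01004* had the same shape, low in replicate 1: 21.5, 75.9 and 81.5 for *LINC01260*, and 117, 326 and 442 for *LINC01004* (edgeR adjusted p = 1.7e-05 and 0.00099). *LINC01260* lies wholly within another annotated RNA on its strand. In *LINC00342* replicate 2 was the highest on average, at 178 against 47.9 and 112, but NC went against it with 86.1, 78.1 and 163 (edgeR adjusted p = 0.031). *LINC00950*, *LINC01512* and *LINC00476* also differed between replicate numbers (edgeR adjusted p = 1.6e-05, 0.00091 and 0.00019), whereas for *LINC00115* and *LINC00963* the adjusted p was 0.78 and 0.13. The count was 23 without replicate 1 and 36 without replicate 3. Replicate numbers stand for passages, and passage, harvest and library preparation cannot be told apart.

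**Figure D4:**
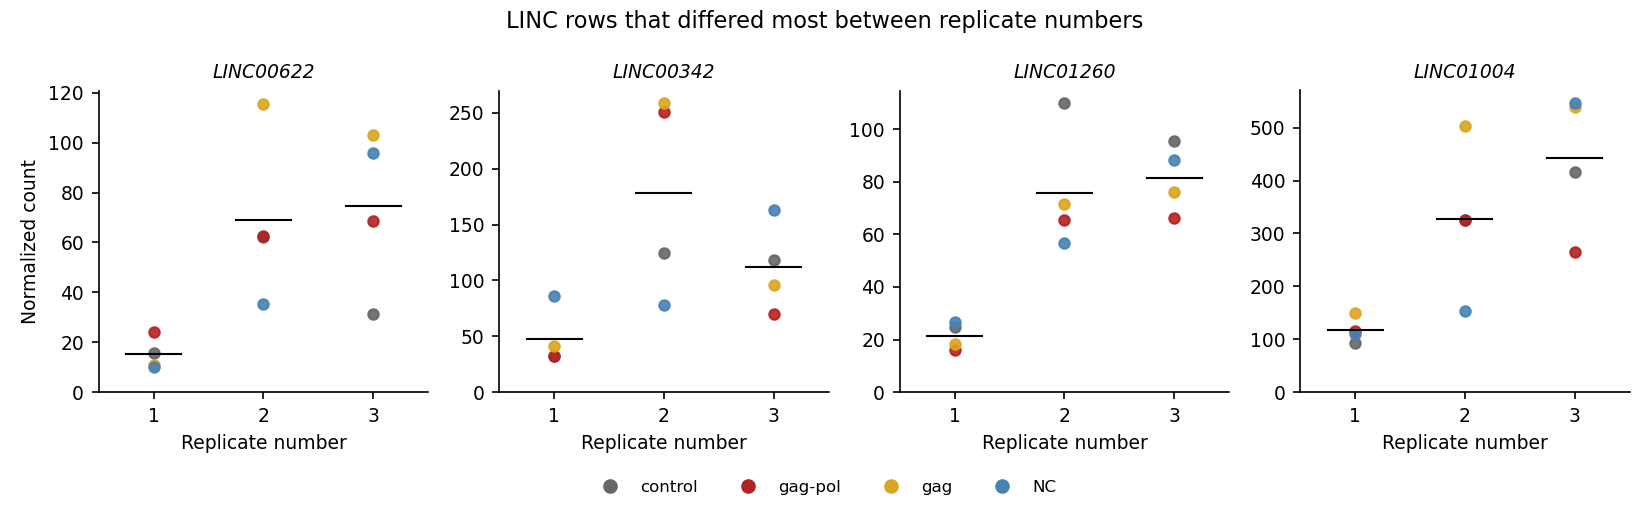
Normalized count per library of 4 LINC genes by replicate number (axes from 0), coloured by construct, with a line at the mean of the 4 libraries. In *LINC00622*, *LINC01260* and *LINC01004* all 4 libraries of replicate 1 lie at the bottom, and *LINC00342* is less even.

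Fold changes of LINC genes and of the genes beside them were nearly uncorrelated. For each of the 123 placed genes the nearest tested protein-coding gene was taken, at a median distance of 8791 bases. Across these 123 pairs, Pearson's r between the log2 fold change of the LINC gene and that of its neighbour was -0.07 for gag-pol, 0.06 for gag and -0.06 for NC, a description across genes that share libraries. For 11 pairs with starts within 1000 bases and facing away from each other, r ran from 0.32 to 0.46. Of the named genes, *LINC01512* and its neighbour *VEGFA*, an angiogenic growth factor gene, both rose with NC: *VEGFA* by 0.24 (edgeR adjusted p = 0.039) from 104558 bases away. *VEGFA* rose with gag-pol as well, by 0.24 (edgeR adjusted p = 0.041), where *LINC01512* was not called (0.56, adjusted p = 0.35). With NC, 12 of the 123 neighbours were called, against 11.2% of all genes tested. *ANKRD10*, 8210 bases from *LINC00346*, had log2 fold changes of -0.05, 0.08 and -0.12 with gag-pol, gag and NC. *CHD2*, beside *LINC01578* on the same strand and sharing bases with it, was lower, with a log2 difference of -0.34 with gag-pol and NC than with gag and control (edgeR adjusted p = 0.0092), as was *LINC01578*, with -0.25 (SE 0.08, adjusted p = 0.022). Their shared bases leave the pair uncertain.

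Several LINC genes with a known product were not called against control. *LINC00998*, whose product SMIM30 is a small membrane protein, had group means of 922 ± 122 in control, 959 ± 54.2 with gag-pol, 953 ± 95.8 in the gag group and 1016 ± 104 with NC, and no comparison called it. *LINC00493* (SMIM26, a mitochondrial small protein) had 1046 ± 130.0, 1068 ± 90.6, 955 ± 52.1 and 1201 ± 219 in the same order, and among the comparisons of constructs was called only for NC against gag. *LINC01138* was at 275 ± 64.1, 239.7 ± 20.05, 244 ± 18.4 and 276 ± 89.4. Of the 9 genes now classed as protein coding, 0 were called by edgeR with any construct against control. Over all genes tested, 11.3%, 1.08% and 11.2% were called with gag-pol, gag and NC. In the contrast of gag-pol and NC with gag and control, 2 of the 9, *LINC00094* and *LINC01420*, were called, against 24.7% of all genes tested. *LINC00467* was lowest with gag-pol, at 136, 85.8 and 74.8 against 161, 159.7 and 99.99 in control, but did not pass the test (log2 fold change -0.54, edgeR adjusted p = 0.13).

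Other noncoding RNAs were counted for comparison. Of 532 antisense genes tested (symbol ending in -AS, with or without a number), 22 were called with gag-pol, 3 for gag and 19 for NC, which is 4.14%, 0.564% and 3.57% of them, against 11.3%, 1.08% and 11.2% of all genes tested. For the 227 LINC genes tested, with no limit of 300 counts, these shares were 5.73%, 0.441% and 1.32%. Of a list of well known long noncoding RNAs, 27 were tested, and 2 were called with gag-pol, 0 with gag (2 at an unadjusted p under 0.05) and 3 with NC. *MIR22HG*, the host of a microRNA, fell with gag-pol and with NC, at 48.3, 34.1 and 59.3 and 52.3, 31.6 and 61.7 against 87.2, 61.2 and 215 (log2 fold changes -1.23 and -1.20, edgeR adjusted p = 0.0062 and 0.0089). *TERC*, the RNA template of telomerase, fell with gag-pol but is rarely polyadenylated and had few counts, 12.5, 24.8 and 29.03 in control and 6.04, 5.85 and 0.00 with gag-pol (edgeR adjusted p = 0.042). With NC, *GAS5* rose by 0.29 and *CRNDE* by 0.39 (edgeR adjusted p = 0.022 and 0.035). *MALAT1* and *NEAT1*, abundant nuclear RNAs, were not called with any construct.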

How the data were processed

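RNA of 12 HEK293 libraries (4 groups of 3, grouped by the construct in the labels) was sequenced as paired ends after poly(A) selection. The values were deposited as raw read counts per gene symbol, which the authors made with STAR 2.7.3, SAMtools 1.8 and featureCounts against GRCh38.p13, as the submitters' processing notes list them. The annotation release, strand setting and handling of multimapping reads are not given in the sources used here, and they decide how reads of overlapping genes were assigned. All count columns were mapped to a sample.

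Genes with at least 10 counts in enough libraries (filterByExpr by construct, minimum total 15) were kept, and edgeR 4.0.16 in R 4.3.3 (limma 3.58.1) was run on the counts with TMM factors and the robust quasi-likelihood test. Construct and replicate number were the terms, with 6 residual degrees of freedom, after the study's use of harvest date. Adjusted p-values are Benjamini-Hochberg over 17176 genes. The standard error is the log2 fold change divided by the square root of F. The script was tested on simulated data. Libraries of one replicate number deviated together over all genes tested, with correlations of 0.138 to 0.539 in 18 pairs. In 36 pairs of different numbers the correlations were -0.498 to 0.072. Over the selected LINC genes alone the ranges overlapped, at -0.003 to 0.721 for the same number and -0.731 to 0.307 for different numbers. The replicate numbers come from the labels. P-values measure the spread left between libraries of a single line after the construct and replicate-number terms, not the spread between passages.

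The LINC genes, lists and tests were chosen with earlier results of these data known. Genes were named as the up to 4 largest rises and 4 largest falls called per contrast with the same direction in all 3 replicates, the 10 highest means, the 4 with the largest range between replicate numbers, those called with all 3 constructs in 1 direction (there were none), the 3 on each side of the limit of 300, and those with a second name. Other called genes were named after their values were seen. Positions come from GENCODE 44, promoters from RefSeq, and a motif match is exact on either strand. Alternatives were DESeq2 1.42.0, RLE and upper-quartile factors, no filter or a stricter filter, no replicate block, PEG10 left out, no robust estimation, only the groups compared, and leaving out libraries. Tables and figures were made with Python 3.11.15, pandas 2.3.3 and matplotlib 3.10.9.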

Additional observations from a re-analysis of the deposited data

How the results depend on the processing

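Counts of called LINC genes were recomputed under each alternative. Of these counts 101 stayed within 1.5 times the reported one and 39 did not, and among recomputed fold changes of called genes 879 kept their call, 377 lost it and none reversed. Without the replicate block, edgeR called 0 genes for gag-pol, gag, NC, the contrast of gag-pol and NC with gag and control, and any difference among constructs, with 12, 6, 4, 10 and 8 at an unadjusted p under 0.05. DESeq2 called 3 genes for gag, 5 for NC and 23 for any difference among constructs. With no filter on low counts, 7 were called for NC and 24 among constructs, and with only the 6 libraries compared 6 were called for NC.

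Leaving out a library or a replicate number gave 1 to 14 genes for gag-pol, 0 to 3 for gag, 0 to 9 for NC, 6 to 24 for the contrast of pairs, 2 to 26 among constructs and 23 to 75 among replicate numbers. Where gag gave 0, without replicate 1, edgeR had 9 genes at an unadjusted p under 0.05, and where NC gave 0, without NC replicate 3, it had 17. Each group had 3 libraries, and the median level of the 141 genes was 140.6 normalized counts. The share of all genes called was not computed under these alternatives, so whether the shifts are particular to LINC genes was not tested. The causes of these shifts were not tested either.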
